A study of Saccharomyces cerevisiae with 12 samples.

Results

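Translational efficiency, the density of ribosomes on an mRNA relative to the amount of that mRNA, was compared gene by gene between budding yeast cultures with and without an earlier exposure to radicicol, an inhibitor of the chaperone Hsp90. The members were all protein-coding genes, chosen by their RefSeq type, which were 6007 of the 7130 gene identifiers in the authors' combined count table. Of these, 5356 had enough counts to be tested, 651 had too few, and 211 of those 651 had 0 counts in every library. The 55 identifiers of the mitochondrial chromosome also had 0 counts in all libraries, so translation in mitochondria was not measured.

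Colonies of Saccharomyces cerevisiae, 3 in number, were grown overnight, and each culture was then divided into medium without the drug (untreated) or with 10 µM radicicol (pre-treated) for another night. All cultures were next diluted to an OD600 of 0.001 in fresh medium and grown for a further 24 h, so the pre-treated cells had left the drug long before they were collected. The labels give no strain, genotype or culture density at harvest, and although the series' design text mentions heat shock, no sample is labelled as heat-shocked. The reference used for counting also held plasmid reporter genes. Each of the 6 cultures gave 1 library of poly(A)-selected, fragmented RNA and 1 library of ribosome-protected fragments, the short pieces of mRNA that a ribosome shields from nuclease. The RNA and fragment libraries that carry the same treatment and number were taken to come from the same culture. RNA libraries held between 729461 and 2453746 counts, the lowest being untreated culture 3, and fragment libraries between 1140019 and 1618914. No spike-in was described, so a change is relative to the other genes and says nothing about the total rate of translation.

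A ratio of fragments to RNA rises when more ribosomes start on each mRNA, and also when ribosomes move along it more slowly, and these cannot be told apart by counts per gene. In yeast the classic genes under translational control carry either short upstream reading frames, as in GCN4 and CPA1, or a structure that blocks ribosomes. HAC1, the gene of the transcription factor of the unfolded protein response, is of the second kind: its intron pairs with the 5′ untranslated region and holds back translation until the nuclease Ire1 removes the intron when misfolded proteins build up in the endoplasmic reticulum. Hsp90 itself is encoded by the gene pair HSC82 and HSP82.

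Few genes passed the test for a change in translational efficiency. Of 5356 genes, 15 (0.28%, or 0.271% of all 5543 identifiers tested) passed an adjusted p of 0.05 in edgeR's quasi-likelihood test of the interaction between treatment and library type: 14 (0.261%) rose and 1 (0.0187%), JIP5, fell (2 rose and 1 fell when libraries were scaled by their totals alone). HAC1 stood first, 4.93-fold higher, and was the only call when the model had no culture terms. The other genes that rose code for cell wall proteins (CWP1, CIS3 and PIR1), enzymes of amino acid and sulfur metabolism (CPA1, GLT1, BDS1 and SAH1), a translocon subunit (SEC61), ribosome-related proteins (RPL17A, KRI1 and RQC2), a sterol enzyme (ERG25) and a nucleotide hydrolase (HNT1). Many more genes passed when RNA or fragments were fitted alone. For RNA 714 of 5370 genes (13.3%) passed, 386 higher (7.19%) and 328 lower (6.11%). For fragments 669 of 5037 (13.3%) passed, 428 higher (8.5%) and 241 lower (4.78%). These tests differ in precision, since a ratio carries the error of both library types. The standard deviation of the fitted changes, error included, was 0.403 for translational efficiency, 0.346 for RNA and 0.386 for fragments. The counts therefore do not show that translational efficiency changed less. The fits of RNA, of fragments and of their ratio use the same libraries, and are given side by side below.

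The fitted log2 change of translational efficiency had a median of 0.01 over all genes, and its 5th and 95th percentiles were -0.48 and 0.49. The median standard error (SE) of a gene was 0.21. Changes of more than 1.5-fold were fitted for 184 genes upward (3.44%) and 174 downward (3.25%), of which 9 passed. Beyond 2-fold these were 56 (1.05%) and 53 (0.99%), of which 4 passed. At an unadjusted p of 0.05 there were 364 genes higher (6.8%) and 178 lower (3.32%). Counts of gene lists at that p, given below, are to be read beside these shares. The extremes rest on few fragments: MAL31, a maltose permease gene, had a fitted 4.42 (SE 1.69, edgeR adjusted p = 0.319). It had 0, 0 and 0 fragments in untreated and 2, 1 and 2 in pre-treated cultures, and the size of its change depends on how counts of 0 are handled.

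**Figure D1:**
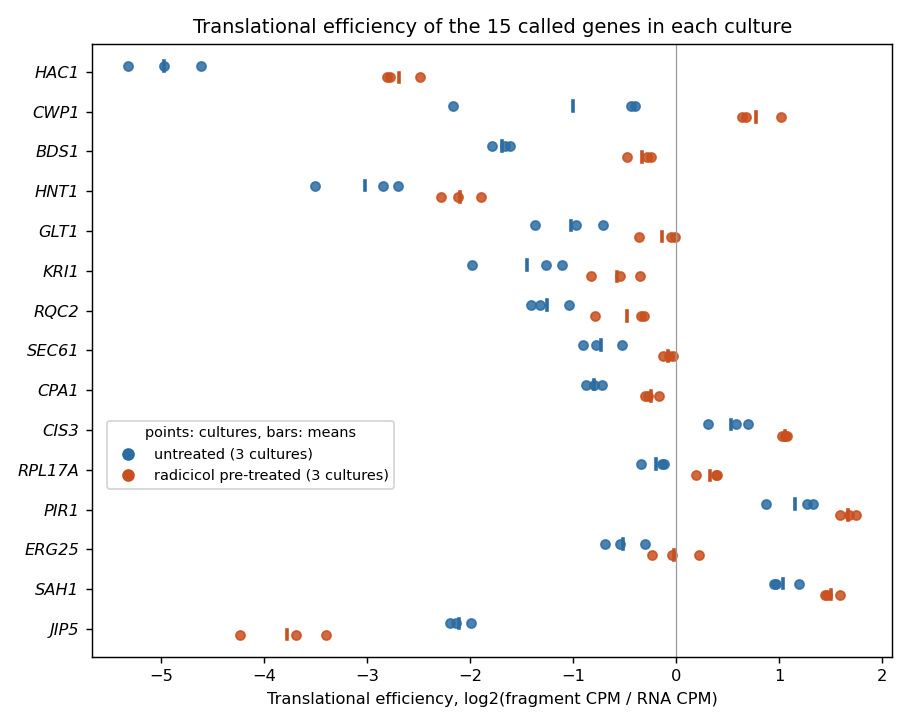
Translational efficiency, as log2 of fragment CPM over RNA CPM, of the 15 genes that passed the test, ordered by the fitted change. Each point is 1 culture (blue untreated, orange radicicol pre-treated) and each bar a mean of 3. At none of the 15 genes do the treatments overlap, and HAC1 shows the widest gap.

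Levels below are log2 of fragment CPM (counts scaled for library size) over RNA CPM in 1 culture, so 0 means equal shares of the fragment and RNA libraries and each unit is a factor of 2. At each of the 15 genes that passed, the 3 pre-treated cultures lay on the same side of all untreated ones. That pattern alone is common: over all 5356 genes, the pre-treated cultures lay above the untreated range at 491 (9.17%) and below it at 343 (6.4%).

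HAC1 (chromosome VI, 75179 to 76147, forward strand of the R64-1-1 annotation) was among the least translated genes of untreated cells, at the 0.765 percentile of translational efficiency over the genes tested. Untreated cultures 1, 2 and 3 had log2 levels of -5.32, -4.62 and -4.98, and pre-treated cultures 1, 2 and 3 had -2.77, -2.49 and -2.81. The treatments were far apart beside their spread, and even the highest pre-treated level stayed far below 0. The fitted log2 change was 2.30 (SE 0.17, edgeR adjusted p = 4.9e-15). It came from the fragments: HAC1 fragment CPM were 39.0, 36.7 and 37.4 untreated and 141.6, 170.4 and 140.3 pre-treated, a rise of 2.00 (SE 0.14). HAC1 RNA was 1577, 910.5 and 1194 CPM against 972.4, 960.6 and 985.7 CPM, a log2 difference of -0.33 (SE 0.17, edgeR adjusted p = 0.257), with untreated cultures 1 and 3 above and culture 2 below the pre-treated ones.

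The per-library files count the exons of HAC1 one by one. The first exon (75179 to 75839, 661 bases) held 41, 44 and 37 fragments untreated and 160, 197 and 184 pre-treated. The second exon (76092 to 76147, 56 bases), beyond the 252-base intron, held 0, 2 and 1 fragments untreated and 4, 7 and 5 pre-treated. A count of 0 in untreated culture 1 allows up to 2.46 CPM, a limit that covers counting error only and lies close to the pre-treated 2.67, 4.61 and 3.05 CPM. RNA reads of the second exon were 522, 336 and 171 untreated and 394, 344 and 351 pre-treated, and per base they were between 1.85 and 2.23 times as dense as in the first exon in all 6 RNA libraries. In the fragment libraries that ratio was at most 0.54. Reads across or inside the intron were not analysed here, so spliced and unspliced HAC1 mRNA cannot be told apart. HAC1 overlaps YFL032W on the same strand and YFL031C-A on the other, and the combined table counted 13, 12 and 8 more HAC1 fragments than both exons together in pre-treated cultures and 1, 0 and 0 more in untreated ones. Where in the gene those fragments lay is not given. HAC1 RNA reads went the other way. The combined count minus both exons together was -150, -90 and -54 in untreated and -110, -82 and -117 in pre-treated RNA libraries. The reason was not tested, so exon counts, and the densities per base drawn from them, may hold some RNA reads more than once.

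**Figure D2:**
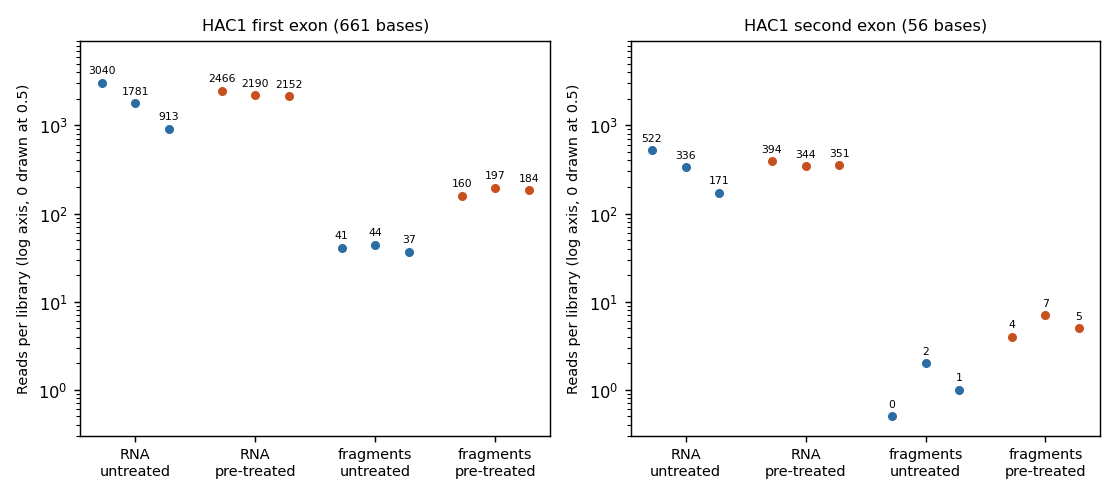
Reads in the first and the second exon of HAC1 per library, on a log axis with 0 drawn at 0.5 (blue untreated, orange pre-treated; 3 libraries per group, number beside each point). Fragments in the first exon go from between 37 and 44 to between 160 and 197, and RNA reads there, not scaled for depth, range from 913 to 3040 untreated and from 2152 to 2466 pre-treated.

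SEC61, the channel subunit through which new proteins enter the endoplasmic reticulum (chromosome XII, 875736 to 877178, reverse strand), had log2 levels of -0.77, -0.90 and -0.53 in untreated and -0.13, -0.07 and -0.03 in pre-treated cultures. The pre-treated cultures lay close together, just below equal shares. Its change was 0.68 (SE 0.15, edgeR adjusted p = 0.0267), from fragments at 116.1, 93.2 and 101.3 CPM untreated and 144.8, 141.2 and 153.1 CPM pre-treated. SEC61 RNA differed by -0.18 (SE 0.11), which did not pass. It overlaps YLR379W on the opposite strand, and the counting was stated to be by strand in the per-library files only. HAC1 and SEC61 were the 2 of 30 endoplasmic reticulum folding and quality control genes that passed, and the same 2 had an unadjusted p under 0.05 (6.67%, against 10.1% over all genes). The median of the 30 was 0.06, and of 28 signal recognition and glycosylation genes 0 passed, with OST3, a subunit of oligosaccharyltransferase, nearest at 0.64 (SE 0.20, edgeR adjusted p = 0.172) and overlapping cultures.

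CWP1, a mannoprotein of the cell wall (chromosome XI, 261132 to 261851, forward strand), had log2 levels of -2.16, -0.40 and -0.44 in untreated and 0.64, 1.02 and 0.68 in pre-treated cultures. Untreated culture 1 was far below the other two, and rested on 3 fragments. The fitted change of CWP1 was 1.68 (SE 0.36, edgeR adjusted p = 0.0267), and without untreated culture 1 the adjusted p was 0.226. Both measures of CWP1 rose: RNA went from 14.3, 10.8 and 17.4 CPM to 47.7, 54.1 and 39.2 CPM (1.81, SE 0.20) and fragments from 2.79, 7.97 and 12.8 CPM to 74.4, 109.7 and 62.7 CPM (3.38, SE 0.34).

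CIS3 and PIR1, which belong to the PIR family of proteins linked to wall glucan, were well translated in untreated cultures. CIS3 (chromosome X, 122265 to 122948, reverse strand) had log2 levels of 0.31, 0.58 and 0.70 in untreated and 1.08, 1.03 and 1.06 in pre-treated cultures, a change of 0.53 (SE 0.12, edgeR adjusted p = 0.0267). PIR1 (chromosome XI, 141794 to 142819, reverse strand) had 0.88, 1.27 and 1.33 untreated and 1.75, 1.68 and 1.6 pre-treated, a change of 0.52 (SE 0.12, edgeR adjusted p = 0.0375). At both genes untreated culture 1 was the lowest and the pre-treated cultures were tightly grouped. CIS3 RNA rose by 0.51 (SE 0.10) and its fragments by 1.02 (SE 0.10), whereas for PIR1 the fragments rose (0.68, SE 0.09) and the RNA difference of 0.17 (SE 0.10) did not pass. PIR genes are close relatives, so counts that cannot be placed between them are uncertain.

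The cell wall list as a whole leaned upward. Of 34 cell wall genes tested, 3 passed, all higher, and 32 of 34 had a fitted change above 0, against 50.8% of all genes. An unadjusted p under 0.05 was found for 17 higher (50%, all genes 6.8%) and 0 lower. The median change was 0.33, against 0.01 over all genes. The median log2 level of the list was 0.86, 0.92 and 1.16 in untreated cultures 1, 2 and 3 and 1.24, 1.21 and 1.10 in pre-treated cultures 1, 2 and 3, so by level the treatments overlapped: untreated culture 3 lay above pre-treated culture 3. Members that did not pass included CCW12, a wall mannoprotein, at 0.51 (SE 0.12, edgeR adjusted p = 0.0644), GAS1, a glucan-remodelling enzyme, at 0.46 (SE 0.12, edgeR adjusted p = 0.0693), and the chitinase gene CTS1 at 0.43 (SE 0.12, edgeR adjusted p = 0.0916); these 3 are named for their small p, after their values were seen. The median RNA change of the list was -0.03 and that of its fragments 0.35. Of the 34 genes, 20 were in the highest of 5 RNA level groups, where changes of all genes also lay higher (given below), and the part of RNA level in the list's values was not tested.

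RPL17A, a protein of the large ribosomal subunit (chromosome XI, 109269 to 110129, forward strand), had log2 levels of -0.34, -0.12 and -0.14 in untreated and 0.20, 0.40 and 0.38 in pre-treated cultures, a change of 0.53 (SE 0.12, edgeR adjusted p = 0.0267). Culture 1 was the lowest of each treatment. Fragments of RPL17A rose by 0.28 (SE 0.09) and its RNA difference of -0.23 (SE 0.09) did not pass. Its near-identical copy RPL17B had 0.34 (SE 0.14, edgeR adjusted p = 0.348), and how the combined table divides their shared reads is not stated.

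RQC2, a ribosome quality control factor that binds the large subunit and extends stalled chains (chromosome XVI, 535820 to 538936, reverse strand), had log2 levels of -1.04, -1.41 and -1.32 in untreated and -0.79, -0.31 and -0.34 in pre-treated cultures. Pre-treated culture 1 lay nearest the untreated ones. Its change was 0.77 (SE 0.17, edgeR adjusted p = 0.0267), between an RNA difference of -0.38 (SE 0.13, edgeR adjusted p = 0.0672) and a fragment rise of 0.38 (SE 0.13, edgeR adjusted p = 0.0461). KRI1, a nucleolar protein needed to make the small subunit (chromosome XIV, 54122 to 55897, reverse strand), had -1.98, -1.26 and -1.10 untreated and -0.82, -0.55 and -0.35 pre-treated, with untreated culture 1 lowest. The change of KRI1 was 0.83 (SE 0.19, edgeR adjusted p = 0.0272), although neither its RNA (-0.46, SE 0.16) nor its fragments (0.30, SE 0.19) passed alone.

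JIP5, a WD-repeat protein tied to large subunit synthesis (chromosome XVI, 878690 to 880168, forward strand), was the 1 gene that fell. Its log2 levels were -2.20, -1.99 and -2.14 in untreated and -3.70, -4.24 and -3.40 in pre-treated cultures, so the groups were more than 1 unit apart. The change was -1.71 (SE 0.37, edgeR adjusted p = 0.0267), and fragments fell by 1.37 (SE 0.36) while the RNA difference was 0.36 (SE 0.15, edgeR adjusted p = 0.115). The counts are small: 12, 22 and 13 fragments untreated and 8, 5 and 8 pre-treated.

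Of 137 cytosolic ribosomal protein genes, RPL17A alone passed. At an unadjusted p of 0.05, 28 were higher (20.4%, all genes 6.8%) and 0 lower (all genes, 3.32%). Of the list, 101 were above 0 (all genes, 50.8%), and the median change was 0.11. Single untreated cultures moved this median: untreated culture 1 had a median log2 level for the list of -0.53, against -0.14 and -0.30 in the other untreated and -0.21, -0.17 and -0.16 in the pre-treated cultures; the list's median change was 0.01 without untreated culture 1 and 0.23 without untreated culture 2. Many of the 137 exist as near-identical pairs, and 127 were in the highest RNA level group. That group leaned upward itself: of its 1071 genes, 193 were higher and 24 lower at an unadjusted p of 0.05. In it 66.1% of genes were above 0, and the median change was 0.09. The part of RNA level in the values of the ribosomal protein list was not tested. Of 80 ribosome biogenesis genes 0 passed in edgeR, 4 were higher and 5 lower at an unadjusted p of 0.05, and the median was 0.04. Mitochondrial ribosomal protein genes (73 tested, 0 passed, 2 higher and 2 lower at an unadjusted p of 0.05) had a median of -0.10 with RSM22 nearest at -0.70 (SE 0.25, edgeR adjusted p = 0.261).

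**Figure D3:**
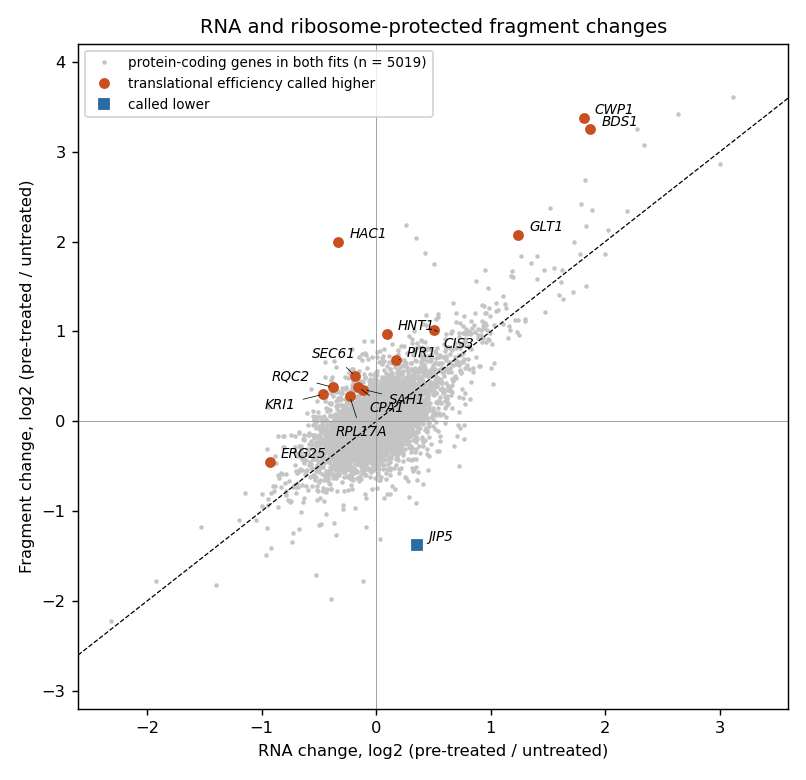
Fitted log2 change of RNA (horizontal) against that of ribosome-protected fragments (vertical) for the 5019 protein-coding genes in both fits, which use different libraries of the same cultures. Genes on the dashed diagonal changed equally in both; HAC1 lies far above it with RNA near 0, BDS1, CWP1 and GLT1 lie above it at the upper right, and JIP5 lies below it.

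CPA1 codes for the small subunit of the carbamoyl phosphate synthetase that feeds arginine synthesis, and its upstream reading frame stalls ribosomes when arginine is plentiful. CPA1 (chromosome XV, 882899 to 884134, forward strand) had log2 levels of -0.88, -0.72 and -0.80 in untreated and -0.30, -0.17 and -0.28 in pre-treated cultures. The spread within each treatment was small beside the gap between them. Its change was 0.55 (SE 0.12, edgeR adjusted p = 0.0267), with a fragment rise of 0.38 (SE 0.10) and an RNA difference of -0.16 (SE 0.10) that did not pass. GCN4, the transcription factor of amino acid synthesis and the textbook gene with upstream reading frames, had -1.64, -1.25 and -1.15 untreated and -1.57, -1.75 and -1.50 pre-treated. Its groups overlapped and the difference of -0.26 (SE 0.12, edgeR adjusted p = 0.47) did not pass, while GCN4 RNA (-0.46, SE 0.09) and fragments (-0.74, SE 0.11) both fell. Of 16 genes with a known upstream reading frame, CPA1 alone passed and 7 were above 0, with a median of -0.03 that changed sign when untreated culture 2, untreated culture 3 or pre-treated culture 3 was left out.

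GLT1, glutamate synthase (chromosome IV, 149203 to 155640, reverse strand), had log2 levels of -0.97, -0.71 and -1.38 in untreated and -0.01, -0.05 and -0.36 in pre-treated cultures. Culture 3 was the lowest in both treatments, and the lowest pre-treated level was still above the highest untreated one. The change was 0.85 (SE 0.19, edgeR adjusted p = 0.0267), on top of a rise of GLT1 RNA by 1.24 (SE 0.11), so that its fragments rose by 2.08 (SE 0.13), from 40.9, 45.4 and 36.4 CPM to 184.1, 179.1 and 161.0 CPM. Of 57 amino acid biosynthesis genes, CPA1 and GLT1 passed, and the median was 0.06. At an unadjusted p of 0.05, 12 were higher (all genes, 6.8%) and 3 lower (all genes, 3.32%), together 26.3% of the list against 10.1% of all genes. Of the 57, 38 were in the highest RNA level group, where changes of all genes also lay higher (given below).

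BDS1, a sulfatase that releases sulfate from organic esters (chromosome XV, 6175 to 8115, forward strand), had the smallest p after HAC1. Its log2 levels were -1.67, -1.61 and -1.79 in untreated and -0.48, -0.24 and -0.28 in pre-treated cultures. Both groups were tight and lay more than 1 unit apart. The change was 1.39 (SE 0.25, edgeR adjusted p = 0.0031), while BDS1 RNA rose by 1.87 (SE 0.14) and fragments by 3.25 (SE 0.21), from 13.0, 12.8 and 12.8 CPM to 91.2, 146.7 and 131.8 CPM. Without culture terms its adjusted p was 0.071.

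SAH1, S-adenosylhomocysteine hydrolase of the methyl cycle (chromosome V, 235770 to 237119, reverse strand), had log2 levels of 0.97, 0.95 and 1.19 in untreated and 1.59, 1.44 and 1.47 in pre-treated cultures. It is among the better translated genes, and passed narrowly with a change of 0.47 (SE 0.11, edgeR adjusted p = 0.0433). SAH1 fragments rose by 0.35 (SE 0.08) and its RNA differed by -0.11 (SE 0.10).

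SUL1, a sulfate permease gene, rose by 3.00 (SE 0.11) in RNA and 2.86 (SE 0.22) in fragments, and its log2 levels of 0.20, 0.17 and 0.40 untreated and -0.20, 0.20 and 0.32 pre-treated overlapped (-0.14, SE 0.15, edgeR adjusted p = 0.831). MET3, ATP sulfurylase, rose by 2.19 (SE 0.11) and 2.34 (SE 0.09), and its levels of 0.92, 0.72 and 0.91 untreated and 0.91, 1.04 and 1.06 pre-treated also overlapped (0.16, SE 0.12, edgeR adjusted p = 0.70). At both genes the fragment rise was about as large as the RNA rise. MHT1, a homocysteine methyltransferase, rose by 1.83 (SE 0.14) in RNA and 2.69 (SE 0.21) in fragments, and its change in translational efficiency of 0.85 (SE 0.22, edgeR adjusted p = 0.0702) did not pass although its cultures did not overlap; it is named after its values were seen. Of 31 methionine and sulfur metabolism genes, BDS1 and SAH1 passed, 25 were above 0 (all genes, 50.8%), and the median was 0.18. Of the 31, 14 were in the highest RNA level group, where changes of all genes also lay higher (given below). At an unadjusted p of 0.05, 12 were higher (all genes, 6.8%) and 1 lower (all genes, 3.32%), together 41.9% of the list against 10.1% of all genes. MET28, a cofactor of the sulfur gene activator, was the 1 lower (-0.38, SE 0.14, edgeR adjusted p = 0.319), and the median log2 levels of the list, 0.30, 0.17 and 0.39 untreated and 0.25, 0.53 and 0.36 pre-treated, overlapped. Of 21 amino acid permease genes 0 passed and 4 were higher at an unadjusted p of 0.05 (19%, all genes 6.8%). AGP3 came nearest at 0.62 (SE 0.21, edgeR adjusted p = 0.245).

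HNT1, a hydrolase of nucleotide phosphoramidates (chromosome IV, 239019 to 239606, reverse strand), had log2 levels of -3.51, -2.85 and -2.71 in untreated and -1.90, -2.28 and -2.12 in pre-treated cultures. Like HAC1 it had few fragments for its RNA in every culture. Its change was 0.90 (SE 0.19, edgeR adjusted p = 0.0267), with fragments at 26.9, 37.5 and 51.1 CPM untreated and 83.2, 68.6 and 74.1 CPM pre-treated, and an RNA difference of 0.09 (SE 0.10).

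ERG25, a demethylating oxidase of ergosterol synthesis (chromosome VII, 610564 to 611493, forward strand), was the 1 gene with higher translational efficiency whose fragments fell. Its RNA fell from 1904, 1902 and 1647 CPM to 1141, 910.0 and 813.0 CPM (-0.92, SE 0.11) and its fragments from 1303, 1179 and 1337 CPM to 973.1, 882.0 and 948.8 CPM (-0.45, SE 0.08). The log2 levels were -0.55, -0.69 and -0.30 untreated and -0.23, -0.04 and 0.22 pre-treated, with nearest cultures close together, and the change was 0.50 (SE 0.12, edgeR adjusted p = 0.0418). Of 26 ergosterol synthesis genes ERG25 alone passed, and the median was 0.08. At an unadjusted p of 0.05, 5 were higher (19.2%, all genes 6.8%) and 0 lower (all genes, 3.32%). Of the 26, 14 were in the highest RNA level group, where changes of all genes also lay higher (given below).

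Taking the 15 genes by how RNA and fragments moved, 8 had a fitted RNA change below 0 and 7 above, and 13 had fragments above 0. The called rises with the largest opposite RNA differences were ERG25, KRI1, RQC2 and HAC1, of which ERG25 alone had an RNA change that passed. In untreated cells, 10 of the 15 were in the lowest of 5 groups by translational efficiency. The untreated libraries enter both the grouping and the change, so error in them can tie a low untreated ratio to a rise. The part of this in the count of 10 was not tested.

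The threshold had no gap. Just inside it lay PIR1, ERG25 and SAH1. The nearest outside were NOP58, a core protein of box C/D particles that modify ribosomal RNA, at 0.75 (SE 0.18, edgeR adjusted p = 0.0503), MIG3, a repressor, at 1.98 (SE 0.49, edgeR adjusted p = 0.0638) on 4, 1 and 5 fragments untreated and 17, 24 and 14 pre-treated, and HCA4, a helicase of ribosomal RNA processing, at 0.80 (SE 0.20, edgeR adjusted p = 0.0639). NOP58 overlaps YOR309C on the same strand.

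The Hsp90 genes and other chaperone genes did not pass in edgeR. HSC82 had log2 levels of 0.21, -0.04 and 0.30 in untreated and 0.43, 0.59 and 0.64 in pre-treated cultures, which did not overlap, with a change of 0.40 (SE 0.11, edgeR adjusted p = 0.0889). It passed in DESeq2 (adjusted p = 0.0341) and in edgeR without untreated culture 3 (adjusted p = 0.0398), and in no other alternative. HSP82 had 0.56, 0.43 and 0.57 against 0.67, 0.97 and 0.83 (0.30, SE 0.11, edgeR adjusted p = 0.262), and its groups did not overlap either, while its RNA fell by 0.33 (SE 0.10). The Hsp90 gene pair are near-identical, so reads shared between them are uncertain. HSP104, the disaggregase, had 1.71, 1.31 and 1.52 untreated and 1.48, 1.40 and 1.41 pre-treated, which overlapped (-0.08, SE 0.11, edgeR adjusted p = 0.862). HSP26, a small heat shock protein gene and one of the most highly counted, had 1.32, 1.04 and 1.29 untreated and 1.40, 1.44 and 1.49 pre-treated (0.23, SE 0.11, edgeR adjusted p = 0.446). HSP26 RNA and fragments each fell, by 0.71 (SE 0.12) and 0.48 (SE 0.07). Of 33 cytosolic chaperone genes 0 passed in edgeR, and the median was 0.07. At an unadjusted p of 0.05, 7 were higher (21.2%, all genes 6.8%) and 0 lower (all genes, 3.32%). Of the 33, 25 were in the highest RNA level group, where changes of all genes also lay higher (given below).

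Of 35 glycolysis and fermentation genes 0 passed in edgeR, 30 were above 0 (all genes, 50.8%), and the median was 0.21. At an unadjusted p of 0.05, 16 were higher (45.7%, all genes 6.8%) and 0 lower (all genes, 3.32%). The median log2 level of the list was 0.52, 0.28 and 0.62 in untreated and 0.72, 0.74 and 0.72 in pre-treated cultures, which did not overlap; untreated culture 2 was lowest, and without it the median change was 0.12. PDC5, a pyruvate decarboxylase isozyme, came nearest, with log2 levels of 0.43, 0.38 and 0.85 against 1.06, 1.07 and 0.97 (0.51, SE 0.13, edgeR adjusted p = 0.0702) beside rises of 3.12 (SE 0.11) in RNA and 3.61 (SE 0.10) in fragments. In this list 26 of 35 genes were in the highest RNA level group, where changes of all genes also lay higher (given below). Of 33 glucose-repressed genes, 0 passed in edgeR and the median was -0.16. At an unadjusted p of 0.05, 0 were higher and 6 lower (18.2%, all genes lower 3.32%). The median log2 level of the list was 0.22, 0.15 and -0.15 in untreated and -0.20, -0.15 and -0.06 in pre-treated cultures, which overlapped, untreated culture 3 lying among the pre-treated ones. The median change was -0.05 without pre-treated culture 1, -0.10 without untreated culture 2 and -0.25 without pre-treated culture 3. ACS1, acetyl-CoA synthetase of growth without glucose, came nearest at -1.20 (SE 0.34, edgeR adjusted p = 0.0998), with levels of -1.18, -0.23 and -0.71 untreated and -2.17, -1.96 and -1.52 pre-treated.

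The remaining lists had 0 genes that passed, apart from HAC1, which is also among the 30 transcription factors of nutrient response (median 0.01). Proteasome genes (37 tested) had a median of -0.07, with 0 higher and 4 lower at an unadjusted p of 0.05. The 20S subunit gene PRE9 came nearest (-0.37, SE 0.13, edgeR adjusted p = 0.244). PRE9 log2 levels were 0.410, 0.166 and 0.165 untreated and -0.128, -0.121 and -0.123 pre-treated, so only the pre-treated cultures were tightly grouped. Its RNA rose by 0.39 (SE 0.11) with fragments at 0.01 (SE 0.09). Phosphate, iron and zinc uptake genes (28 tested) had a median of 0.17, which was 0.05 without untreated culture 2, with VTC1 of polyphosphate storage nearest (0.58, SE 0.16, edgeR adjusted p = 0.0836). Among translation factors, FUN12, the GTPase that joins ribosomal subunits, was at 0.54 (SE 0.14, edgeR adjusted p = 0.0639) and the elongation factor gene EFT2 at 0.58 (SE 0.18, edgeR adjusted p = 0.189; EFT1 codes for the same protein). The medians were 0.04 for 32 initiation factors, 0.14 for 21 elongation and termination factors, 0.13 for 21 aminoacyl-tRNA synthetases (ARC1 nearest, 0.32, SE 0.12), 0.00 for 41 respiratory chain and ATP synthase genes (SDH1, 0.33, SE 0.15), 0.13 for 20 tricarboxylic acid cycle genes (CIT3, -1.07, SE 0.37) and 0.10 for 30 mitochondrial import genes (TOM22, -0.55, SE 0.18). They were 0.15 for 20 histone and S phase genes (POL30, 0.54, SE 0.18), -0.04 for 21 mitosis and cytokinesis genes, 0.03 for 30 general stress genes (YGP1, 0.36, SE 0.12), 0.01 for 13 fatty acid synthesis genes (MGA2, -0.28, SE 0.17) and 0.09 for 23 pleiotropic drug resistance genes (FLR1, 0.83, SE 0.37). Several of these medians depended on 1 culture. Without untreated culture 2 the median was 0.02 for elongation and termination factors, -0.004 for aminoacyl-tRNA synthetases, 0.06 for tricarboxylic acid cycle genes and -0.01 for drug resistance genes. Without untreated culture 1 it was 0.20 for the synthetases and -0.005 for proteasome genes, and without untreated culture 3 it was 0.07 for histone and S phase genes, 0.22 for amino acid permeases and 0.21 for drug resistance genes. Of the lists with medians nearer 0, most moved by more than 1.5 times or changed sign without at least 1 culture.

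**Figure D4:**
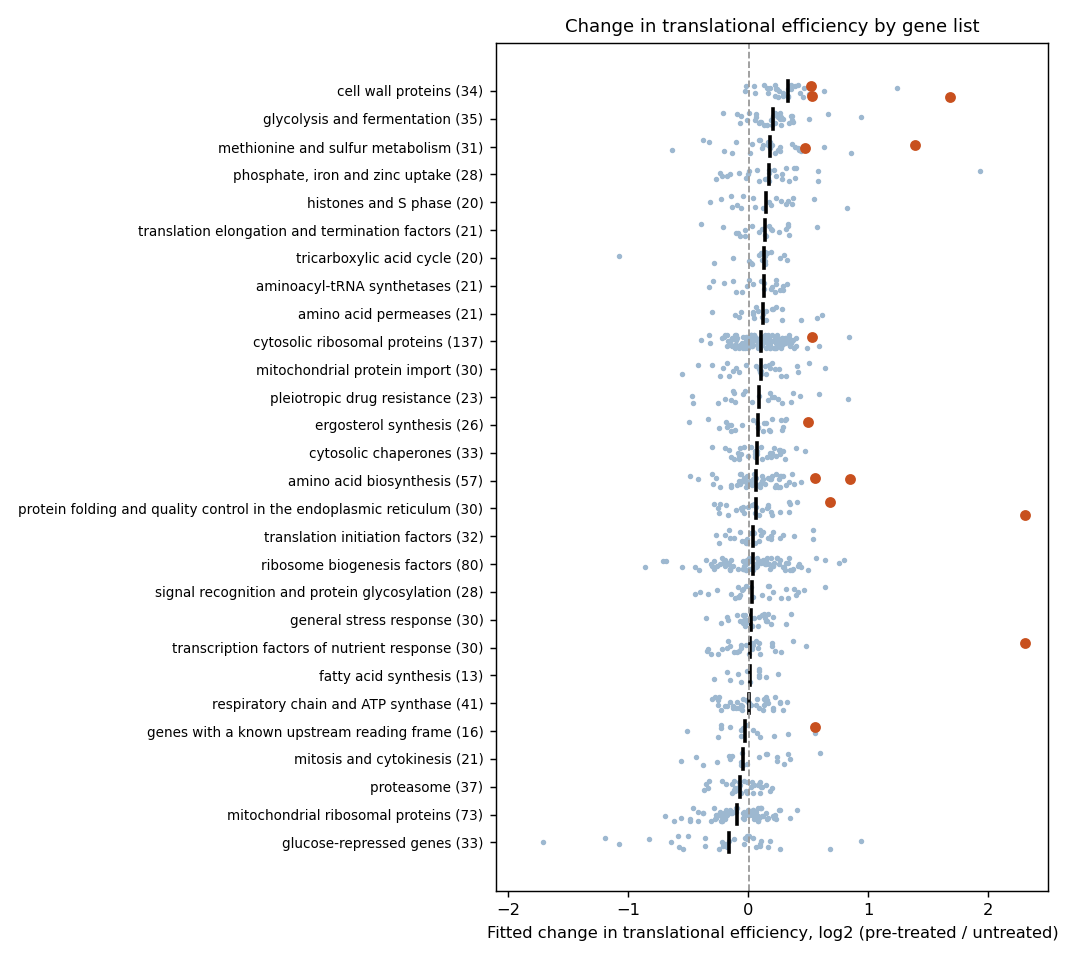
Fitted log2 change of translational efficiency of the tested members of 28 gene lists (number tested in brackets). Small points are genes, large orange points genes that passed the test, black bars list medians and the dashed line the median of all 5356 genes (0.01); points beyond the axis, from -2.1 to 2.5, are not drawn. Cell wall, glycolysis and sulfur lists have the highest medians (0.33, 0.21 and 0.18) and glucose-repressed genes the lowest (-0.16).

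Across all genes the change leaned with RNA level. In 5 equal groups of genes by untreated RNA CPM per kilobase, from the lowest to the highest, the median log2 change was -0.08, -0.03, -0.02, 0.02 and 0.09. In the highest group 193 of 1071 genes were higher and 24 lower at an unadjusted p of 0.05, against 19 and 42 of 1072 in the lowest. Over 5356 genes Spearman's rho with RNA level was 0.18, as a description across genes that share the same 12 libraries. The untreated RNA libraries enter both this grouping and the change, as the divisor of untreated translational efficiency. Counting error there can tie a high untreated RNA count to a fitted rise. How much of the lean comes from this was not tested. The change also leaned with untreated translational efficiency (medians 0.08, 0.02, -0.01, -0.03 and -0.02 from the lowest group to the highest), which likewise shares libraries with the change. By feature length, mostly coding length, the first 4 groups had medians between 0.01 and 0.02 and the longest genes, of 2140 bases and more, -0.04. Of the 15 genes that passed, 8 were in the highest RNA group.

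**Figure D5:**
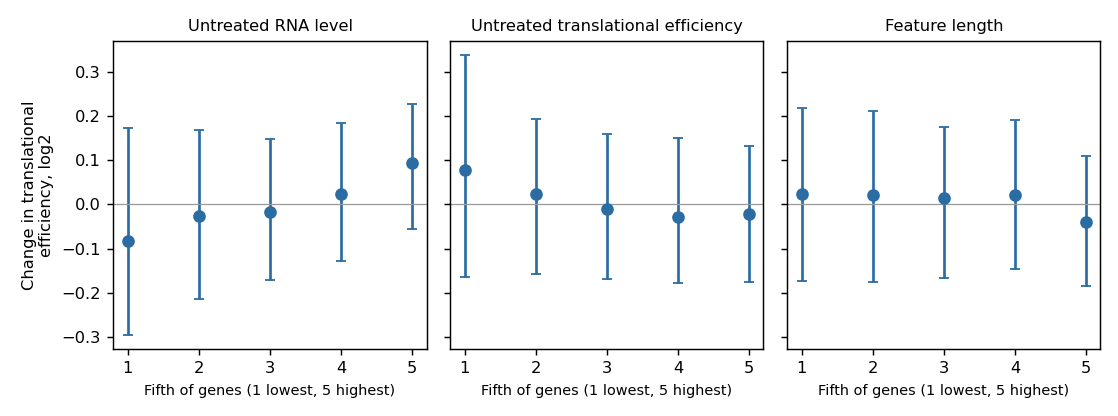
Median (point) and 25th to 75th percentile (bar) of the log2 change in translational efficiency in 5 equal groups of the 5356 genes, by untreated RNA level per kilobase, by untreated translational efficiency and by feature length. The medians go from -0.08 to 0.09 with RNA level, while the bars of all groups span 0.

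The cultures themselves limit these comparisons. Over 5032 genes with enough counts, the log2 levels of a pair of cultures correlated at r between 0.80 and 0.82 within the untreated group, between 0.87 and 0.89 within the pre-treated group and between 0.81 and 0.84 across treatments, so untreated cultures were as unlike each other as they were unlike pre-treated ones. The number of calls moved with single cultures: it was 11, 62 and 34 without untreated cultures 1, 2 and 3, and 6, 3 and 7 without pre-treated cultures 1, 2 and 3. HAC1 passed in each of these, as did BDS1, and the other 13 genes each missed the threshold without at least 1 culture. Without culture terms, HAC1 was the single call, with 441 genes under an unadjusted p of 0.05.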

How the data were processed

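RNA and ribosome-protected fragment libraries of 6 yeast cultures were analysed. The authors deposited raw counts per gene in a combined table, whose making is not given in the sources used here, and per-library count files. Per the file headers, those were made with featureCounts 1.6.2 by strand and exon feature on R64-1-1 with a plasmid added; the build sacCer3 and the tools SAMtools 1.9, STAR 2.7.1a and cutadapt 1.18 are named in the submitters' processing notes. Reads of close paralogs are uncertain.

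Counts of the combined table were fitted with edgeR 4.0.16 in R 4.3.3: filterByExpr (minimum count 10, minimum total 15) kept 5543 identifiers, TMM scaling ran over 12 libraries, and the robust quasi-likelihood F test took the interaction of treatment and library type with a term for each of the 6 cultures, leaving 4 residual degrees of freedom. Benjamini-Hochberg adjustment covered all 5543, of which 187 were not protein-coding and none of those passed. Levels per culture are log2 ratios of CPM with 0.5 counts added. RNA and fragments were also fitted alone over 6 libraries each. In the libraries, 3 counts equal between 1.22 and 4.11 CPM. Replicates of a group differed by more than counting noise (chi-square per gene between 1.98 and 6.17). P-values rest on the spread between cultures, which edgeR moderates with information shared across genes. Each SE is the absolute log2 change over the square root of F. Neither a p-value nor an SE is therefore the spread of 1 gene alone. Coordinates are those of the files. The fit was also run on simulated data in which both libraries of a culture shared a deviation. That run assumes the pairing, so it cannot test it. Its set changes were larger than most of the called ones, so it does not bear on those.

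The genes and lists were chosen with earlier results of these data known. Named are up to 12 called genes per direction with the largest changes and cultures that do not overlap, 11 preset genes, up to 4 called members of each list or else its member of smallest p, up to 4 called genes per direction with the largest opposite RNA change, and the 3 genes on each side of the threshold; 1 gene that this rule names is not reported here. Alternatives were 20 in number, including DESeq2 1.42.0 and limma 3.58.1. RefSeq types and names were matched by locus tag on assembly R64. No sequences were used here, so sequence features of the genes were not analysed.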

Additional observations from a re-analysis of the deposited data

How the results depend on the processing

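The count of 15 called genes was 3 with library totals alone, which took the median of all genes from 0.01 to -0.09 (the cell wall median stood 0.325 above it in both), 35 with no filter on low counts, 25 with DESeq2, 3 with limma on per-culture ratios, 2 when tested against a 1.2-fold change, and 29 from the per-library files. It lay between 12 and 20 with the other scalings, a stricter filter, no robust estimation or protein-coding genes alone. DESeq2 shared 7 of the 15, and the other 8 got no adjusted p there. Leaving out 1 culture gave between 3 and 62 calls. For RNA (714) and fragments (669), leaving out 1 replicate gave between 395 and 722 and between 424 and 672, the lowest without pre-treated replicate 2, and upper-quartile scaling 739 and 679.

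HAC1 passed under all 20 alternatives (log2 change between 2.11 and 2.49, highest adjusted p 0.000587). BDS1 passed in 18 of the 19 that gave it an adjusted p, and the 15 genes together kept the call in 190 of 292 values and the direction in 300 of 300. The highest adjusted p of the other 13 lay between 0.186 (HNT1) and 0.873 (SAH1). These maxima are over all alternatives, among them the test against a 1.2-fold change, which asks for a larger effect. For SAH1 the highest edgeR adjusted p was 0.313 with 1 culture left out and 0.262 without culture terms. The cause was not tested. The 28 named genes that did not pass in the main test passed in 29 of 560 alternative values, among them NOP58 in 8, FUN12 in 5, MIG3 and HCA4 in 4 each and PDC5 in 3 (DESeq2 adjusted p = 0.0341). For these 28, the direction reversed for SUL1 without pre-treated replicate 1 and for HSP104 without untreated replicate 1; leaving out single cultures gave log2 changes between -0.247 and 0.0123 for SUL1 and between -0.181 and 0.016 for HSP104.

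Libraries of a treatment that share a number were taken as paired within a culture. Their deviations from the group means correlated at r = 0.05, 0.04 and 0.10 untreated and 0.13, 0.11 and 0.18 pre-treated, which is not above 0.1 for every pair, and without that replicate block 1 gene was called. The labels do not say whether a number marks 1 colony in both treatments. Deviations of libraries with the same number correlated across treatments at r between -0.13 and 0.05, which cannot decide it. The main model took the 6 cultures as unpaired across treatments. A replicate block across treatments gave 30 calls, 662 for RNA and 593 for fragments. The planned sequence properties were not run because no sequences were used here. Few fragments limit genes such as MAL31, MIG3 and JIP5.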

Other observations

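The plasmid reporter sequences, which are outside the protein-coding set, showed no call. The HIS reporter coding sequence had a log2 change in translational efficiency of -0.03 (HisReporterCds, SE 0.10, edgeR adjusted p = 0.963), with its RNA at 0.34 (SE 0.11) and its fragments at 0.31 (SE 0.07), both of which rose. The LacZ reporter coding sequence had -0.28 (LaczReporterCds, SE 0.40, edgeR adjusted p = 0.87), and its RNA rose by 1.11 (SE 0.19).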
